A study of Mus musculus with 6 samples.

Results

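A set of 8 genes that mark enteric glia and the neural crest was followed in RNA from 6 cultures of mouse colonic fibroblasts: Sox10, Foxd3, Erbb3, Ngfr, Ret, Cdh19, Gfap and S100b. They were taken by symbol from the deposited transcript table, 8 genes of 38896, and all 8 passed the filter on low counts. The distal colons of mice 6 weeks old gave the fibroblasts, which were grown for 2 passages and then spent 24 h in control or in inflammatory conditioned medium. Each of the 3 mice, numbered 1716, 1717 and 1718, gave 1 library labelled Ctrl (control here) and 1 labelled DSS, which was taken as the culture in inflammatory medium. DSS commonly stands for dextran sulfate sodium, which causes colitis in mice. The genotype field of the labels holds only control or DSS, and neither the strain nor the making of the medium is stated in the labels. Levels are in CPM, the estimated counts scaled by library size, and a change is the log2 of the DSS level over the control level ± SE, with the mouse as a block (a term that compares the 2 libraries of each mouse with each other).

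Enteric glia are the supporting cells of the nervous system of the gut wall, and with the enteric neurons they descend from neural crest cells that migrate into the embryonic gut. SOX10 keeps these cells in the glial and progenitor state, RET with its GDNF ligands and ERBB3 with neuregulins carry survival and growth signals to crest-derived cells, and GFAP is a filament protein whose level in glia is known to vary with their state. Such cells lie within the connective tissue and muscle of the colon and can come along when that tissue is cultured.

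In brief, the 8 transcripts were present in all 6 libraries, 7 of them were highest in mouse 1716 and lowest in mouse 1718 in both groups, and 3 were lower in DSS: Gfap and Ret by about the same factor, and Erbb3 by less. The 3 lower genes are 3 of 8, beside 12.7% of the 19869 genes tested that were lower in DSS at an adjusted p under 0.05, and none of the 8 was higher, beside 12.3%. The transcription factor genes Sox10 and Foxd3 did not pass the test between groups. The fitted fall corresponded to 3.18-fold for Gfap, 3.18-fold for Ret and 1.28-fold for Erbb3.

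The libraries held 17293680 to 19482938 estimated counts. With the block, edgeR's quasi-likelihood test called 2447 genes higher and 2517 lower in DSS, and without it 1465 and 1174. The label of the cells was checked against markers: the 10 fibroblast markers summed to 43358 to 51984 CPM in control and 25415 to 29591 CPM in DSS, and all were detected. Macrophage and leukocyte markers were present as well, with 11 genes summing to 1719 to 2469 CPM in control and 1012 to 1579 CPM in DSS. In RNA from whole cultures, fewer cells of a type and less RNA per cell cannot be told apart.

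The start regions of 2 genes are shown because their genes shared the order of the mice and parted between the groups: Gfap fell and Foxd3 did not pass the test. Each holds 250 bases before the start and the first 10 bases of the gene, from RefSeq on GRCm38.p6, and capitals mark any match to 4 motifs. The motifs were searched on both strands and are, by their letters, the SOX core ACAANG, the AP-1 motif TGANTCA, the STAT motif TTCNNNGAA and the TATA box with the letters TATAAA.
Gfap, chr11:102897191-102897450, minus strand: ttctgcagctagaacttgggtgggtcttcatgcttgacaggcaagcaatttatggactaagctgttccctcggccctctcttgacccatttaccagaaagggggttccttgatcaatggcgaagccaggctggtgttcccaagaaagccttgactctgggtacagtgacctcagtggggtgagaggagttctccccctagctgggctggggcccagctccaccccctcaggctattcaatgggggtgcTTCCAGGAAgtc
Foxd3, chr4:99656049-99656308, plus strand: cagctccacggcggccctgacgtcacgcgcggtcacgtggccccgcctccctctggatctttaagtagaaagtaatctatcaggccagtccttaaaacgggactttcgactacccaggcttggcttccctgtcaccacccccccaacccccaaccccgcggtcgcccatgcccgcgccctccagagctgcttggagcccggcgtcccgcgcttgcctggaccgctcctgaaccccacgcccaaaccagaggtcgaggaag
The Gfap window held 1 match, to the STAT letters, beginning 2 bases before the start, and the Foxd3 window held none. Of 32851 windows of the same 260 bases, 7.33% held the STAT letters, 37.5% the SOX core, 7.03% the AP-1 letters and 12.7% the TATA letters. These 4 motifs were chosen after the values were seen, and a match is a run of letters and not a bound site. Windows for S100b and Ngfr were also on hand, with 1 match to the SOX core in S100b and no match in Ngfr, while Sox10, Erbb3, Ret and Cdh19 had no entry.

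**Figure D1:**
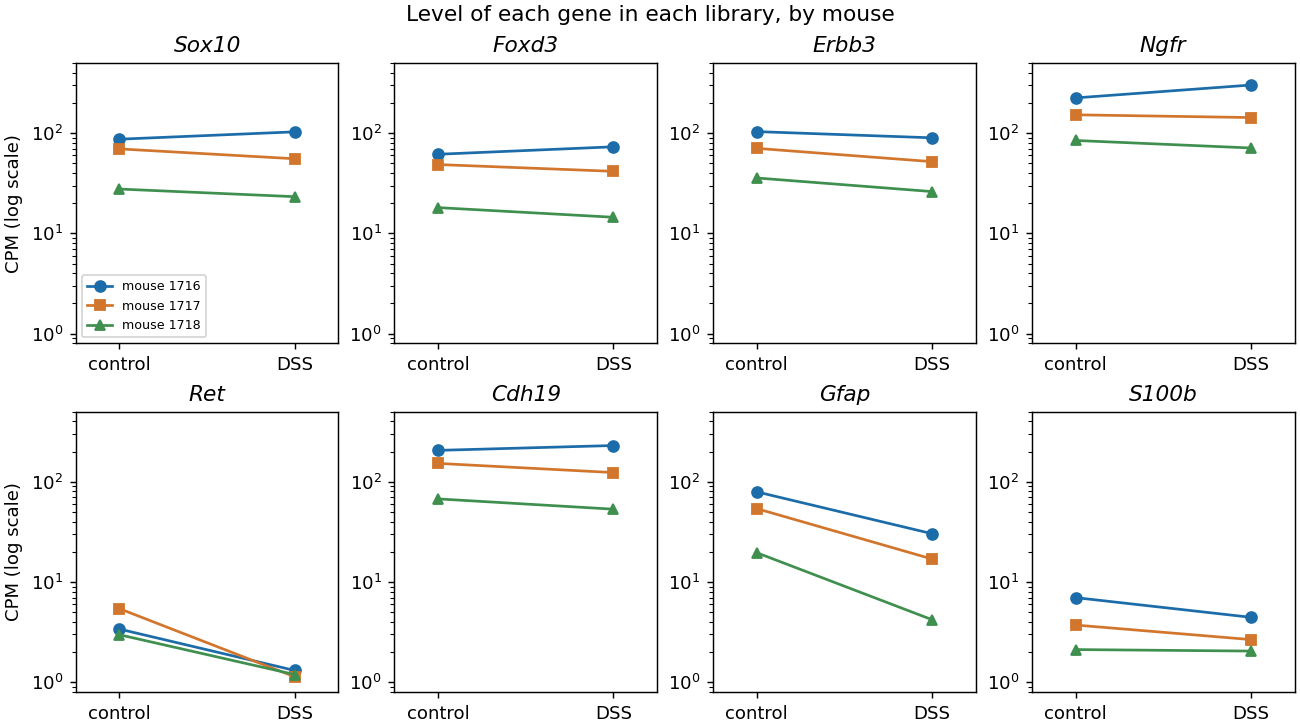
Level of each of the 8 genes in CPM (log scale) in the control and the DSS library of each mouse, joined by a line per mouse. In 7 genes mouse 1716 is highest and mouse 1718 lowest in both groups, and Gfap and Ret are lower in DSS in all 3 mice.

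The transcription factors come first. Sox10 (NCBI Gene 20665, chromosome 15, 79154913 to 79164490, GRCm38.p6) encodes the SOX factor that defines enteric glia and their progenitors. It measured 87.0, 69.7 and 27.7 CPM in the control cultures of mice 1716, 1717 and 1718 and 103, 55.5 and 23.2 CPM in their DSS cultures. The groups overlapped, DSS was higher in mouse 1716 and lower in the others, and the change of -0.097 ± 0.11 did not pass (edgeR adjusted p = 0.582). Foxd3 (NCBI Gene 15221, chromosome 4, 99656299 to 99658671), a forkhead factor of early neural crest, measured 61.6, 48.6 and 18.1 CPM in control and 73.1, 41.6 and 14.5 CPM in DSS. It showed the same picture, with a change of -0.071 ± 0.11 (edgeR adjusted p = 0.692). Without mouse 1716 both fell, Sox10 by 0.29 (edgeR adjusted p = 0.0163) and Foxd3 by 0.26 (edgeR adjusted p = 0.0384); neither was called with all 3 mice.

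The levels of these 2 factors moved together over the libraries. Foxd3 counts were 70.8, 69.8 and 65.3% of the Sox10 counts in control and 70.9, 74.9 and 62.3% in DSS, while the Sox10 level itself ranged from 23.2 to 103 CPM. Pearson's r of log2(CPM + 0.5) between them was 0.998 over 6 libraries, a description of libraries that share mice. Cdh19 tracked Sox10 as closely (r = 0.998), Ngfr and Erbb3 nearly so (0.980 and 0.974), and Ret did not (0.199).

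Among the receptors, Erbb3 (NCBI Gene 13867, chromosome 10, 128567523 to 128589635), which binds neuregulins and signals with a partner since its own kinase is weak, measured 104, 70.5 and 35.7 CPM in control and 89.8, 52.0 and 26.1 CPM in DSS. The groups overlapped because the mice lay so far apart, but DSS was lower in each mouse. With the block Erbb3 fell by 0.36 ± 0.07 (edgeR adjusted p = 0.00904). The call was lost without the block (-0.32 ± 0.49, edgeR adjusted p = 0.720), without mouse 1718 (0.0573) and with curated transcripts alone (0.0635).

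Ret (NCBI Gene 19713, chromosome 6, 118151748 to 118197744), the receptor kinase of GDNF-family ligands, was the member with the lowest mean CPM in each group. S100b lay below it in the control libraries of mice 1717 and 1718. The control libraries held 67, 99 and 52 estimated counts of Ret and the DSS libraries 23, 20 and 21, or 3.39, 5.42 and 2.98 CPM against 1.31, 1.13 and 1.19 CPM. All DSS libraries lay below all control libraries, as in 16.5% of the genes tested, and Ret was the only member for which this held. It fell by 1.67 ± 0.23 (edgeR adjusted p = 0.00223), and it was the only member called with and without the block (edgeR adjusted p = 0.00802 without). Without the block 5.91% of all genes were called lower. Its 2 curated transcripts took changing parts of these few counts, the one matched to 5456 bases 45.7 to 69.5% in control and 43.9 to 100% in DSS.

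Ngfr (NCBI Gene 18053, chromosome 11, 95568818 to 95587698), the p75 neurotrophin receptor found on glia, Schwann cells and some fibroblasts, measured 225, 152 and 84.5 CPM in control and 302, 143 and 71.1 CPM in DSS. DSS was higher in mouse 1716 and lower in the others, and the change of 0.036 ± 0.12 did not pass (edgeR adjusted p = 0.864). Its direction turned to -0.17 without mouse 1716.

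Cdh19 (NCBI Gene 227485, chromosome 1, 110888002 to 110977601), a cadherin of Schwann cell precursors and enteric glia, measured 206, 152 and 67.4 CPM in control and 230, 123 and 53.2 CPM in DSS. The order of the mice was again the main feature, and the change of -0.15 ± 0.10 missed the threshold (edgeR adjusted p = 0.319) but passed without mouse 1716 (-0.32, edgeR adjusted p = 0.00798). Of its 5 transcripts, 3 are predicted models, and the most abundant curated transcript held 28.9 to 48.1% of the gene's counts in control and 43.5 to 52.5% in DSS.

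Gfap (NCBI Gene 14580, chromosome 11, 102887336 to 102897200), the intermediate filament of astrocytes and many enteric glia, stood at 79.2, 53.9 and 19.6 CPM in control and at 30.3, 17.0 and 4.21 CPM in DSS. The DSS library of mouse 1716 lay above the control library of mouse 1718, so the groups overlapped, yet the level was lower in DSS in every mouse, by 1.37, 1.64 and 2.09 in log2(CPM + 0.5). In 28.5% of the genes tested DSS was lower in all 3 mice. With the block Gfap fell by 1.67 ± 0.13 (edgeR adjusted p = 0.000235). Without the block the size was nearly the same, -1.57 ± 0.68, but the spread between mice entered the error and the call was lost (edgeR adjusted p = 0.182). The most abundant curated transcript held 82.3 to 88.2% of the Gfap counts in control and 80.7 to 87.9% in DSS.

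S100b (NCBI Gene 20203, chromosome 10, 76253836 to 76261319), a calcium-binding protein used to stain enteric glia, was low at 6.98, 3.72 and 2.12 CPM in control and 4.44, 2.66 and 2.05 CPM in DSS. DSS was lower in each mouse, but in mouse 1718 the libraries held 37 and 36 counts. Its change of -0.46 ± 0.17 did not pass (edgeR adjusted p = 0.0899).

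**Figure D2:**
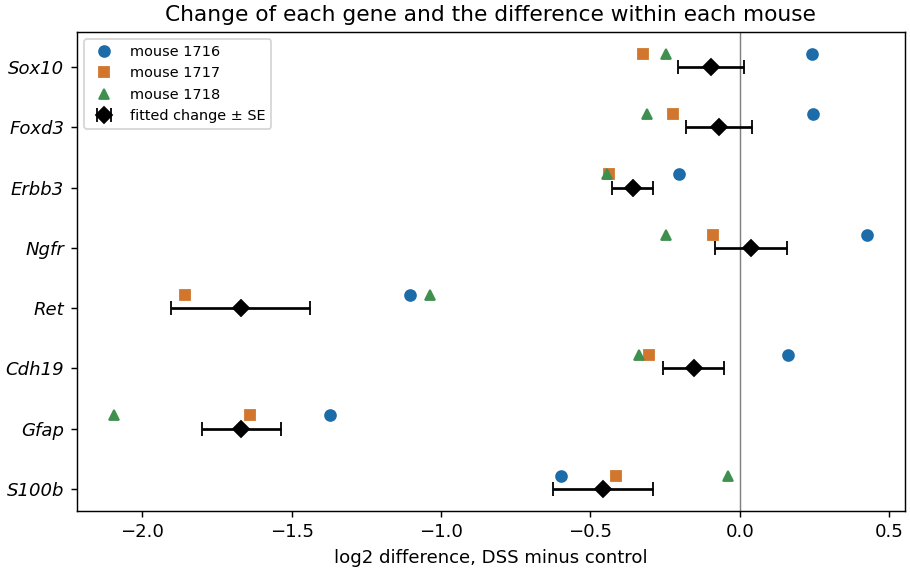
Log2 difference of DSS minus control for each gene: black diamonds give the fitted change ± SE with the mouse as a block, and coloured points the difference of log2(CPM + 0.5) within each mouse. Gfap and Ret lie below -1 in all 3 mice, and Sox10, Foxd3, Ngfr and Cdh19 have mouse 1716 above 0 and the others below.

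Since the levels of 7 members stepped down from mouse 1716 to mouse 1718, each gene was also set against Sox10 in the same library, a ratio that needs no scaling between libraries (the reference was chosen after the values were seen). Gfap counts were 91.0, 77.4 and 70.7% of Sox10 counts in control and 29.4, 30.5 and 18.1% in DSS, without overlap between the groups. The share of all genes whose ratio to Sox10 parts the groups in this way was not computed. The mean log2 difference of the Gfap ratio was -1.65 ± 0.31 (SD, n = 3 mice). Ret counts went from 3.90, 7.78 and 10.7% to 1.27, 2.04 and 5.13% of Sox10, lower in each mouse but with overlap between the groups. For Erbb3 the ratio was 119, 101 and 129% in control and 87.2, 93.6 and 112% in DSS, lower in each mouse but with overlap. S100b went from 8.02, 5.34 and 7.64% to 4.31, 4.80 and 8.80%, which was lower in 2 mice and higher in mouse 1718. Against the sum of the other 7 members, Gfap went from 11.4, 10.7 and 8.21% to 3.77, 4.04 and 2.20%. A fall against Sox10 was not particular to members. L1cam, Gap43 and Ncam1, described below, were also lower against it in each mouse, with mean log2 differences of -0.74, -0.73 and -1.99. Ngfr was higher against Sox10 in each mouse, with 0.14. With 3 pairs the smallest 2-sided p of an exact permutation test is 0.25, so no test was made of these ratios.

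**Figure D3:**
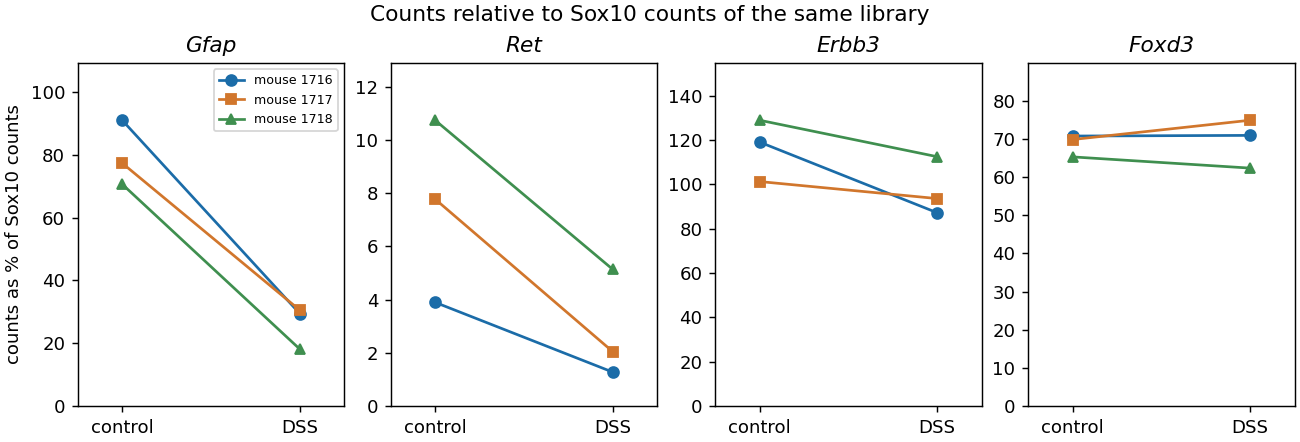
Counts of Gfap, Ret, Erbb3 and Foxd3 as a percentage of the Sox10 counts of the same library, with a line per mouse. Gfap lies between 70.7 and 91.0% in control and between 18.1 and 30.5% in DSS, whereas Foxd3 stays between 62.3 and 74.9% in all libraries.

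The order of the mice was the other main feature of these genes. Mouse 1716 was above mouse 1717 and that above mouse 1718 in both groups for 7 of the 8 members, all but Ret, and for 7.45% of all genes tested. The same 7 were at least 2-fold higher in mouse 1716 than in mouse 1718 in both groups, beside 1.5% of all genes. This order and the 2-fold limit were set after the members' values were seen, so the shares of all genes are a description and not a test. Most members also moved together over the libraries, so the 7 are not separate observations. In control this ratio ran from 2.66 for Ngfr to 4.05 for Gfap, and in DSS from 2.17 for S100b to 7.21 for Gfap. The 8 members summed to 772, 557 and 258 CPM in control and to 834, 436 and 196 CPM in DSS. Fibroblast markers summed the other way in control (43358, 49135 and 51984 CPM) and the same way in DSS (29591, 28415 and 25415 CPM). None of these 10 genes followed the order of the mice in both groups. No macrophage or leukocyte marker followed it either, nor any epithelial or mesothelial marker that was tested. Among genes tested in other lists, the order held for 4 of 9 of Schwann cells and myelin and 2 of 7 of enteric neurons. It also held for 1 of 4 melanocyte genes and 4 of 9 genes of the GDNF family list. It was followed by 2 of 7 endothelial markers, Pecam1 and Emcn, and by 1 of 9 markers of smooth muscle, Cajal cells and pericytes, Rgs5, all named after their values were seen. Rgs5 was 4.27-fold higher in mouse 1716 than in mouse 1718 in control and 4.01-fold in DSS, and neither endothelial gene reached 2-fold in both groups. These rest on few counts: Rgs5 held 58, 31 and 12 in control and 28, 17 and 7 in DSS. Emcn held 15, 11 and 8 in control and 12, 10 and 9 in DSS.

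Per length, the order of the genes in control was Ngfr at 44.7 ± 20.3 CPM per kilobase (SD, n = 3), Cdh19 at 36.2 ± 17.8, Sox10 at 22.7 ± 11.2, Gfap at 19.2 ± 11.3, Foxd3 at 18.4 ± 9.61, Erbb3 at 11.6 ± 5.64, S100b at 2.88 ± 1.67 and Ret at 0.720 ± 0.239. The genes of a library share much of the spread between mice, so the order was also read within libraries. In all 6, Ngfr lay above Cdh19, Cdh19 above Sox10, Sox10 above Foxd3, Foxd3 above Erbb3, Erbb3 above S100b and S100b above Ret. In control Gfap lay below Sox10 and above Erbb3 in each library, but it was above Foxd3 in mouse 1716 and below it in the others, so these neighbours had no fixed order. In DSS Gfap stood at 6.48 ± 4.93 CPM per kilobase, below Erbb3 (9.31 ± 5.33) and above S100b (2.06 ± 0.839) in each library. Lengths are those of the GENCODE transcript paired with the most abundant curated transcript of each gene. For Cdh19 that transcript held 28.9 to 52.5% of the counts, and its other transcripts had no length on hand, so its place is less certain.

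A further list of 16 enteric glia genes held Sox2, L1cam and others. Of 15 tested, 7 were lower, 1 was higher and 7 did not pass (median log2 fold change -0.33, against 0.0094 for all genes), and 8 followed the order of the mice with at least 2-fold between mice 1716 and 1718. Without the block 2 were lower and none higher, and without mouse 1717 or without mouse 1718 4 were lower. For this list and those below, 12.7% of all genes tested were lower and 12.3% higher with the block, and 5.91% lower without it. Calls over all genes also fell on leaving out a mouse, from 2517 lower to 1810 without mouse 1717 and 1422 without mouse 1718. L1cam, an adhesion molecule of crest-derived cells, fell by 0.82 ± 0.11 (edgeR adjusted p = 0.379 without the block) and showed the same order of mice, from 83.9 to 31.7 CPM in control. Ncam1, which is also a coreceptor for GDNF, fell by 2.10 ± 0.20, from 261, 287 and 279 CPM to 92.6, 66.0 and 42.7 CPM, and did not follow that order in control. Sparcl1 fell by 1.46 ± 0.19. Sox2, a factor of glia and progenitors, measured 19.8, 10.5 and 6.18 CPM in control and 21.4, 7.88 and 3.07 CPM in DSS, and the test was not passed (edgeR adjusted p = 0.281, 0.0310 without mouse 1716). Art3 was the gene that rose, by 1.30 ± 0.23 (edgeR adjusted p = 0.00669), and it was chosen after its value was seen.

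Of 14 tested genes among 16 further transcription factors of the neural crest, 4 were lower and none was higher (median -0.053). Snai2 fell by 1.81 ± 0.12, from 23.2, 16.8 and 23.5 CPM to 7.35, 5.38 and 5.34 CPM, and Snai1 by 0.91 ± 0.07. Both encode repressors that drive crest cells to leave the neural tube and are also active in fibroblasts. Sox9 and Hand2 fell by 0.68 ± 0.19 and 0.40 ± 0.12. Neither call held without the block (edgeR adjusted p = 0.136 and 0.266) or without mouse 1717 (0.0999 and 0.0513), nor that of Sox9 without mouse 1716 (0.134) or that of Hand2 without mouse 1718 (0.171). Only 2 genes of this list followed the order of the mice, and without the block 2 were lower.

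Markers of related cells were read to see which crest-derived cells the transcripts could come from. In the list of 16 enteric neuron genes, 10 stayed under 1 CPM in all libraries, among them Elavl4, at 0.109 to 0.228 CPM, and the summed level was 113 to 145 CPM in control and 95.5 to 154 CPM in DSS. Tubb3, a tubulin of neurons that cultured fibroblasts can also express, fell by 0.77 ± 0.22 (edgeR adjusted p = 0.300 without the block, 0.120 without mouse 1717 and 0.173 without mouse 1718), and Uchl1, a ubiquitin hydrolase of neurons, rose by 1.15 ± 0.20. Of 7 genes of this list that were tested, 1 was higher and 2 were lower.

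Of 12 Schwann cell and myelin genes 9 were tested, 4 were lower and 1 was higher (none in either direction without the block, and 2 lower without mouse 1718). Gap43, a growth-cone protein of growing axons and immature Schwann cells, measured 41.2, 31.3 and 12.0 CPM in control and 24.6, 18.5 and 5.85 CPM in DSS and fell by 0.81 ± 0.08, and Egr2 fell by 0.88 ± 0.11. The list summed to 399 to 712 CPM in control and 367 to 587 CPM in DSS, and 4 of its genes stayed under 1 CPM in all libraries. Of 7 melanocyte genes 2 were at 0 in all libraries, and only Mitf, a factor that other cells also use, was called, with a rise of 0.84 ± 0.06. The list summed to 24.6 to 28.5 CPM in control and 39.8 to 51.0 CPM in DSS.

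ERBB3 and RET are also known from epithelium, so a list of epithelial genes was read as well. Of its 12 genes 9 stayed under 1 CPM in all libraries, Epcam at 0 to 0.114 CPM and Krt8 at 0.0506 to 0.170 CPM. The sum was 12.7 to 17.6 CPM in control and 4.94 to 7.31 CPM in DSS. Of 4 tested, Muc2 fell by 2.11 ± 0.15, from 8.15, 11.6 and 7.73 CPM to 2.34, 2.55 and 1.48 CPM. Krt19 fell by 1.62 ± 0.22, from 2.28, 3.06 and 2.18 CPM to 0.741, 1.13 and 0.568 CPM. Ret lay at 2.98 to 5.42 CPM in control and 1.13 to 1.31 CPM in DSS, and whether it came from epithelial cells was not tested. The mesothelial list of 6 genes summed to 2.48 to 4.98 CPM in control and 2.84 to 4.67 CPM in DSS, and neither of 2 genes tested was called. Of 7 endothelial genes tested 2 were lower (none without the block or without mouse 1716, and 1 without mouse 1718), with a sum of 16.1 to 24.1 CPM in control and 13.6 to 17.8 CPM in DSS. Lower levels in DSS were also measured for 6 of 9 genes of smooth muscle, interstitial cells of Cajal and pericytes, 6 of 9 macrophage and leukocyte genes and 7 of 10 fibroblast genes, with 1, 1 and 2 that were higher. Without the block 3, 4 and 5 were lower. Of all genes tested, 12.7% were lower with the block and 5.91% without it. Smooth muscle, Cajal cell and pericyte genes summed to 1601 to 1712 CPM in control and 1080 to 1297 CPM in DSS. The part of these cells in the changes of the 8 members was not tested.

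**Figure D4:**
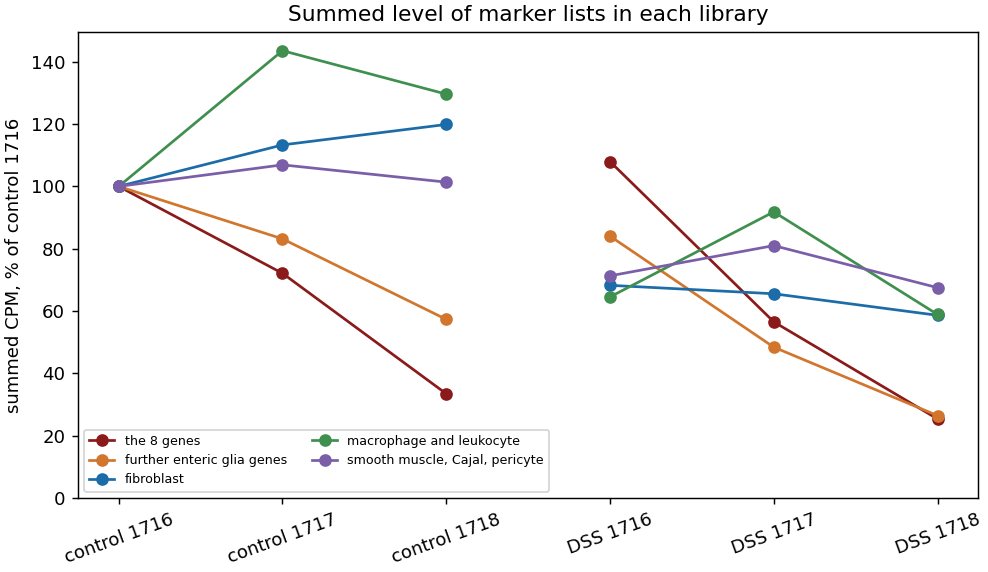
Summed CPM of 5 marker lists in each library, as a percentage of the control library of mouse 1716. The 8 genes and the further enteric glia genes step down from mouse 1716 to mouse 1718 in both groups. Fibroblast markers rise in that direction in control and fall in DSS.

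Ligands for the 3 receptors were then read from lists of their pathways, in which the producing cell is not known. Neurotrophins bind NGFR, which works with several partners. Sort1, the partner of NGFR in binding precursor neurotrophins, rose by 0.51 ± 0.09 (edgeR adjusted p = 0.0647 without the block), and Sorcs2, a related partner, fell by 0.66 ± 0.07 (0.0867 without the block by edgeR). Lingo1, a coreceptor in axon growth inhibition, fell by 0.87 ± 0.11 (edgeR adjusted p = 0.0638 without the block), and Maged1, an adaptor that binds NGFR, fell by 0.46 ± 0.05. The receptors of the TRK family Ntrk2 and Ntrk3 were low, at 4.18 to 8.84 CPM and 1.36 to 2.23 CPM, and did not pass. Of 15 tested genes in the neurotrophin list 3 were higher and 4 lower (median 0.20).

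Of 9 tested genes in the list of the GDNF family, its coreceptors and Sorl1, 4 were higher and none lower (median 0.26). Without the block, without mouse 1717 and without mouse 1718, 2 were higher in each case. Gdnf, the main ligand of RET in the gut, measured 51.2, 38.0 and 16.7 CPM in control and 98.8, 46.4 and 22.3 CPM in DSS, so it followed the order of the mice and was higher in DSS in each. It rose by 0.57 ± 0.12 (edgeR adjusted p = 0.0149), a call lost without the block (0.497). Artn, another ligand, rose by 0.62 ± 0.17 (edgeR adjusted p = 0.0323, 0.0667 without the block, 0.0939 without mouse 1717 and 0.153 without mouse 1718), and Gdf15, a ligand that acts through GFRAL and RET, rose by 1.72 ± 0.11 (edgeR adjusted p = 0.000107). Gfral itself was at 0 to 0.114 CPM and was not tested. Gfra1, the coreceptor that binds GDNF, measured 48.0, 38.4 and 15.9 CPM in control and 46.4, 31.6 and 8.47 CPM in DSS, and its change missed the threshold (edgeR adjusted p = 0.120, 0.0274 without mouse 1716). Sorl1, a sorting receptor, rose by 0.67 ± 0.16 (edgeR adjusted p = 0.0193, lost without mouse 1717 at 0.0643 and without mouse 1718 at 0.0595).

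In the neuregulin and ERBB list 1 of 8 tested genes was higher and 1 lower (median 0.14). Nrg1, the ligand of ERBB3, measured 106, 35.1 and 49.8 CPM in control and 41.0, 54.6 and 68.4 CPM in DSS, lower in mouse 1716 and higher in the others, and did not pass (edgeR adjusted p = 0.879, 0.00111 without mouse 1716). Erbb2, the signalling partner of ERBB3, lay at 37.3 to 40.8 CPM in control and 42.6 to 43.8 CPM in DSS, and its change missed the threshold (edgeR adjusted p = 0.136). Egfr rose by 0.59 ± 0.08, and the protease gene Adam19 fell by 0.28 ± 0.06 (edgeR adjusted p = 0.107 without the block, 0.0685 without mouse 1717 and 0.101 without mouse 1718).

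Endothelin 3 and its receptor EDNRB are needed for crest cells to settle the distal colon. Edn3 was at 0 to 0.0572 CPM, and Ednrb measured 27.3, 16.5 and 7.73 CPM in control and 20.2, 25.8 and 14.7 CPM in DSS, with no call (edgeR adjusted p = 0.372, 0.00138 without mouse 1716). Ednra, the receptor of muscle and fibroblasts, fell by 1.22 ± 0.12, and Ece1, which cuts the precursors, rose by 0.30 ± 0.06 (edgeR adjusted p = 0.0762 without mouse 1718). They were the called genes among 5 tested.

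**Figure D5:**
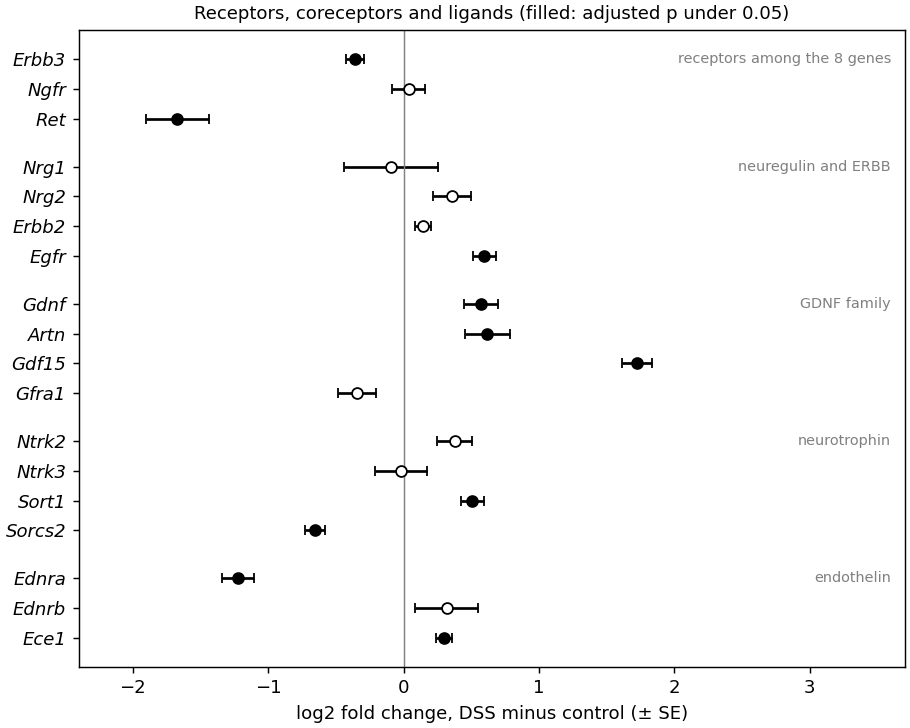
Log2 fold change of DSS minus control ± SE for Erbb3, Ngfr and Ret and for ligands, partners and receptors of the same pathways, with filled points for an edgeR adjusted p under 0.05. Gdf15 at 1.72 lies highest, and Ret at -1.67 lowest.

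Gfap belongs to the type III intermediate filaments, and 3 of 5 tested genes of that list, which also holds nestin and neurofilaments, were lower in DSS and 1 was higher (median -0.56). Vim, the filament of fibroblasts and also of glia, fell by 0.79 ± 0.12, from 1165, 1381 and 1256 CPM to 891, 696 and 637 CPM. Des fell by 0.92 ± 0.10 (edgeR adjusted p = 0.160 without the block) and Synm by 0.56 ± 0.12 (edgeR adjusted p = 0.0645 without the block and 0.0638 without mouse 1717). Nefm, a neurofilament subunit, rose by 3.07 ± 0.32 from 0.219 to 0.506 CPM in control to 2.27 to 4.15 CPM in DSS. The fitted change of Gfap was larger in size than those of Vim, Des and Synm, and the difference between genes was not tested.

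By a fixed rule the 3 expressed genes with the pattern most like each member were listed, over 6 libraries and 12567 or 12568 genes whose mean reached 5 CPM. Foxd3 had Cyp2j9, Tmod1 and Sox10 (r = 0.999 to 0.998), and Cdh19 had Sox10 among its 3. For Sox10 they were Gm32807, St6gal1 and Gm33361, for S100b C030002A05Rik, Adam10 and Gm39136, for Gfap Wnk1, Gab1 and Aatk (r = 0.999 to 0.995), for Ngfr Steap3, Gm36123 and Itga7, and for Ret Ulk2, Slc10a7 and Dzip1l. With 6 points and this many genes, high r is common, and the r is given as a description only.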

How the data were processed

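Directional libraries were prepared from ribosome-depleted RNA of 6 cultures, per the labels' protocols. The authors deposited estimated counts per RefSeq transcript, made with kallisto on GRCm38 (mm10) per the submitters' processing notes, with no scaling to a common total. For kallisto, neither version nor settings are given in the sources used here. The 120299 transcripts were summed to 38896 genes and rounded to whole numbers. Genes passing edgeR's filterByExpr (minimum count 10, minimum total 15) were scaled by TMM and compared by the quasi-likelihood test of edgeR, the mouse being a block, at a Benjamini-Hochberg adjusted p under 0.05 over 19869 genes. Library deviations from group means correlated across genes with r = 0.403, 0.247 and 0.517 within mice and -0.409 to 0.016 between mice. The deviations of a group cancel out, so positive values within mice push those between mice down by construction. The fit was made in edgeR 4.0.16 under R 4.3.3, with DESeq2 1.42.0 and limma 3.58.1 for alternatives. The same fit was run on counts simulated from its own means and dispersions, which cannot show whether that model holds for these data. The members and gene lists were chosen with earlier results of these data known. Named were the members, up to 4 genes with the smallest p in each list, preset ligands, coreceptors and markers, and, for each member with a mean of at least 1 CPM, the 3 genes most like it by Pearson's r of log2(CPM + 0.5) among those whose mean reached 5 CPM. Alternatives were no block, 3 other scalings, no filter, DESeq2, limma-voom, curated transcripts alone, and leaving out each mouse. Under the block a library without its partner carries no contrast, so both libraries of a mouse were left out together. Some genes within the rule for naming are not reported here.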

Additional observations from a re-analysis of the deposited data

How the results depend on the processing

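The alternatives numbered 11. Ret was lower and called in all 11 (-1.83 to -1.34, adjusted p = 0.000313 to 0.0335). Gfap was lower in all 11 (-1.85 to -1.53) and lost its call only with no replicate block (-1.57). Erbb3 was lower in all 11 and lost its call with no replicate block (-0.32), with curated transcripts alone (-0.34) and without mouse 1718, with -0.44 to -0.32 on leaving out each mouse. S100b was lower and not called in all 11 (adjusted p = 0.0742 to 0.530). On leaving out each mouse, Sox10 ran from -0.29 to 0.024, Foxd3 from -0.26 to 0.014 (0.0065 without mouse 1718), Cdh19 from -0.32 to -0.077 and Ngfr from -0.17 to 0.16; the first 3 were called lower without mouse 1716. With no replicate block Foxd3 was at 0.0076. Ngfr was called in none.

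Genes higher and lower in DSS numbered 2447 and 2517 with the block, 1465 and 1174 with no replicate block, 1470 and 1569 with DESeq2, 1015 and 983 with curated transcripts alone (fewer genes tested), and 1357 to 2304 and 1422 to 2375 without each mouse. The cause of these shifts was not tested. At 20 to 99 counts for Ret and 36 to 138 for S100b, counting noise limits what can be seen.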

Other observations

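The families of the other members gave further values. The S100 list held 15 genes, among them S100pbp, the gene of a binding protein and not of an S100 protein. Of these, 10 were tested, S100pbp included, 3 were lower in DSS and none was higher: S100a4 fell by 0.44 ± 0.10 (edgeR adjusted p = 0.0173, 0.0723 without the block, 0.0514 without mouse 1716 and 0.0612 without mouse 1717), S100a10 by 0.47 ± 0.08 and S100a11 by 0.32 ± 0.07 (edgeR adjusted p = 0.0132, 0.0669 without mouse 1718). None of these 10 followed the order of the mice that S100b showed. Among 17 cadherins related to Cdh19, 14 were tested, 3 were lower and 1 was higher. Cdh10 fell by 2.75 ± 0.20, from 3.34, 4.71 and 5.09 CPM to 0.513, 0.737 and 0.682 CPM, Cdh3 by 0.94 ± 0.08, and Cdh11, a cadherin of mesenchymal cells, by 0.31 ± 0.09 (edgeR adjusted p = 0.0491, 0.384 without the block, 0.115 without mouse 1716 and 0.190 without mouse 1717). Cdh4 rose by 1.07 ± 0.20 (edgeR adjusted p = 0.00844, 0.0853 without the block and 0.0602 without mouse 1717). Cdh2, the cadherin of crest cells and fibroblasts, did not pass (edgeR adjusted p = 0.0716, 0.0374 without mouse 1716).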
